A study of Mus musculus with 21 samples.

Results

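The genes of the mitochondrial respiratory chain and ATP synthase were followed in sorted mouse lung epithelial cells and lung fibroblasts around birth and in the weeks after it. The members are all gene symbols of the per-library tables that begin with Nduf (followed by a, b, c, s or v and a number), Sdh, Uqcr, Cox4 to Cox8 or Atp5 and match the full pattern of those families. They came to 80 of the 25035 genes listed in either cell type: 79 in the epithelial tables and 80 in the fibroblast tables. Complex I held 34 of them, complex II 4, complex III 8, complex IV 17 and complex V (ATP synthase) 17. Atp5s and Atp5sl match the pattern, but RefSeq now calls them Dmac2l and Dmac2, a coupling factor and an assembly protein rather than subunits of the enzyme. Ndufa4 carries a complex I name and is placed here with complex IV, with which its protein is found.

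The 5 complexes sit in the inner mitochondrial membrane. Complexes I and II take electrons from NADH and succinate, complex III passes them to cytochrome c, and complex IV hands them to oxygen. The protons pumped on the way drive ATP synthase. Most subunits are encoded in the nucleus and imported, some of them as tissue isoforms, and the catalytic cores of complexes I, III, IV and the membrane part of complex V also need subunits encoded in mitochondrial DNA. In the lung, alveolar type 2 cells, which make surfactant, are rich in mitochondria, and birth exposes the tissue to air for the first time.

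The mice were of the C57BL/6 background and all carried the transgene Col1a2-GFP, in which a collagen gene promoter drives the fluorescent protein. Epithelial cells were sorted as Epcam-positive cells lacking GFP and the lineage markers CD31, CD45, Ter119 and CD146; at E18.5 the label does not name the GFP gate. Fibroblasts were sorted as GFP-positive cells lacking Epcam and the same lineage markers, so that fibroblasts without activity of the transgene are outside the sort. Both cell types were taken at 5 shared stages (E18.5 before birth, then P0.5, P2, P7 and finally P28), each with 2 libraries, and fibroblasts also at P56 with 1 library, 21 libraries in all. Separate animals are not named in the labels, and the p-values thus reflect library-to-library spread, part or all of which may be technical.

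Expression was measured by 3′SAGE-seq, which reads a short tag near the 3′ end of polyadenylated RNA after amplification. The deposited value of a gene is its tag count divided by a factor for the library, and values in the text are these unless joint CPM (counts scaled to equal library size over the genes of both cell types) is named. Depth was 2146071 to 5729829 reads per library, and the members took 0.446% to 1.13% of them. The labels held against the markers: the sum of 5 epithelial markers was 996 to 2176 in epithelial libraries and 0 to 21.3 in fibroblast libraries, and the sum of 5 mesenchymal markers was 154 to 2364 in epithelial libraries and 9868 to 32328 in fibroblast libraries. In sorted populations, fewer cells of a type and less RNA per cell cannot be told apart. Overlaps and shared sequence limit single genes, since it is not stated whether tags were counted by strand: 36 of the 80 members overlap another annotated gene, and 41 share a run of at least 25 bases in the last 300 bases of the transcript with another gene, 35 of them with a pseudogene.

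The 250 bases before the RefSeq start (GRCm38.p6, read along the strand of the gene, 5′ to 3′) are shown for Ndufa3, Atp5k and Atp5l, which had the 2 largest log2 rises at birth in epithelium (Atp5k, Ndufa3) and in fibroblasts (Atp5l, Ndufa3). Capitals mark matches on either strand to any of 4 short motifs. The first is GCGCATGC, the core of the site of NRF1, a factor known to bind promoters of respiratory genes. The core of ETS factors was searched as CCGGAAG, which other members of that family share. For the nuclear receptor ERR, known to act on mitochondrial genes, the letters were AAGGTCA in either orientation. The TATA box, found in a minority of promoters, was searched as TATAAA. For YY1 the letters AAGATGG were searched, and the muscle factor MEF2 was searched as TATTTATA; neither occurs in these 3 windows.
Ndufa3, chr7:3617123-3617372, plus strand: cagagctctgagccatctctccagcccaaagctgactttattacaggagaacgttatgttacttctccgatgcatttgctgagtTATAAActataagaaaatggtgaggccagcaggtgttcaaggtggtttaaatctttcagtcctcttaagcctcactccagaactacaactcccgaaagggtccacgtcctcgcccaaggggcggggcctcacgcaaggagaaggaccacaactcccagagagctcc
Atp5k, chr5:108434400-108434649, minus strand: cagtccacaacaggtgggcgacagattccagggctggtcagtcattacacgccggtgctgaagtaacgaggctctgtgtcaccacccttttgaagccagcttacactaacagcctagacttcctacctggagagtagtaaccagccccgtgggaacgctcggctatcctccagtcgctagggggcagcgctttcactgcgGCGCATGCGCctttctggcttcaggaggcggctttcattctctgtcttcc
Atp5l, chr9:44920743-44920992, minus strand: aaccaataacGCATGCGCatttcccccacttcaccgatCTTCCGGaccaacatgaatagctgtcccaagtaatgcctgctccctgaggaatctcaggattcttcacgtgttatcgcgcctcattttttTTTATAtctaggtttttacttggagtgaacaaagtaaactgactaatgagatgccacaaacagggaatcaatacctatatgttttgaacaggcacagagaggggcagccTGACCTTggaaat
In Atp5k the 2 NRF1 cores, one on each strand, overlap. Across the 67 of 80 members found in the promoter table, the NRF1 core occurred in 11.9%, against 2.56% of all 27025 genes, and the ETS core in 17.9%, against 7.83%. The other letters were not more frequent by as much: ERR 5.97% against 4.7%, YY1 2.99% against 5.18%, TATA box 8.96% against 14.3% and MEF2 0% against 1.86%. The median G and C content was 56.4% in the members and 52.4% in all genes. A match is a run of letters, not a site shown to be bound.

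The first question was how the chain moved across birth. In epithelium at P0.5, 16 of 73 tested members rose and 0 fell against E18.5, where 7.24% of all 12143 genes tested rose and 7.09% fell (limma, Benjamini-Hochberg adjusted p under 0.05 over all genes). The members that rose were small accessory subunits of complexes I, III, IV and V, together with Uqcrfs1, the Rieske iron-sulfur protein of complex III. In fibroblasts, 21 of 75 rose and 2 fell, where 8.05% of 11954 genes rose and 7.34% fell. The median log2 change of the tested members was 0.53 in epithelium and 0.49 in fibroblasts, beside -0.02 and -0.01 over all genes tested in each. Without the adjustment, 26 epithelial members were higher and 8 lower at p under 0.05, and edgeR called 17 higher and 0 lower and DESeq2 14 higher and 1 lower.

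Complex I contributed 5 of its 33 tested genes in each cell type. Ndufa3, an accessory subunit encoded at chr7:3617373-3620327 (plus strand), had values of 2111 and 2618 in the P0.5 epithelial libraries, against 206 and 347 at E18.5, a log2 change of 3.13 (SE 0.36, adjusted p = 0.00015). In fibroblasts it had 1519 and 1896 at P0.5, against 406 and 374 at E18.5 (log2 change 2.12, SE 0.17, adjusted p = 1.3e-07). The P0.5 and E18.5 libraries did not overlap in either cell type. The annotated gene overlaps Tfpt.

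The other complex I genes that rose in both cell types were Ndufa2, Ndufa5 and Ndufa7, all accessory subunits outside the electron path. Ndufa5 had 11 and 15.0 at P0.5 in epithelium, against 2.59 and 2.52 at E18.5, and in fibroblasts 8.50 and 11.6, against 1.69 and 2.13. Its log2 change was 1.96 in epithelium and 1.92 in fibroblasts, and without P0.5 fibroblast replicate 2 the fibroblast call was lost (1.71). Ndufb2 also rose in epithelium (1.49) and Ndufb3 in fibroblasts (1.18). The core subunit genes Ndufv1, Ndufs1, Ndufs7 and Ndufs8, whose proteins carry the flavin or iron-sulfur centres, were not called in either cell type.

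Complex III rose most broadly: 5 of 8 members in epithelium and 6 of 8 in fibroblasts were called. Uqcr10, a small subunit beside cytochrome c1, had 84.8 and 71.8 at P0.5 in epithelium, against 13.6 and 25.9 at E18.5, and in fibroblasts 88.4 and 89.8, against 38.2 and 20.05 (log2 changes 2.00 and 1.65). Uqcrfs1 had 109 and 97.0 at P0.5 in epithelium, against 34.1 and 32.2 at E18.5 (log2 change 1.61, SE 0.21, adjusted p = 0.00031). Uqcr11, Uqcrb and Uqcrh rose in both cell types, and Uqcrq in fibroblasts. The core proteins Uqcrc1 and Uqcrc2, relatives of a mitochondrial processing peptidase, were not called.

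In complex IV, Cox6c, Cox7c and Cox8a rose in both cell types, and Cox7b and Ndufa4 also in fibroblasts. Cox6b2 was called higher in fibroblasts too, but it passed the filter on low values only through its P0.5 libraries, so this call carries no weight, and 20 of the 21 fibroblast calls stand without it. Cox6c had 105 and 92.5 at P0.5 in epithelium, against 14.9 and 36.0 at E18.5 (log2 change 2.03, SE 0.35, adjusted p = 0.0020). In fibroblasts it had 129 and 94.7, against 35.4 and 33.7 (log2 change 1.65). Cox4i1, Cox5a, Cox5b and Cox6a1, which surround the catalytic core, were not called at birth. Complex II, whose 4 nuclear subunits form the whole enzyme, had no member called in epithelium. In fibroblasts Sdhc, one of its membrane anchors, fell, with 669 and 613 at P0.5, against 1146 and 1154 at E18.5 (log2 change -0.84, SE 0.19, adjusted p = 0.0057), a call lost without P0.5 replicate 2 (-0.78) or without the filter on low values.

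In ATP synthase, Atp5k, Atp5l and Atp5j2, the subunits e, g and f of the membrane part, rose in both cell types, and Atp5g2 in fibroblasts. Atp5k had 11 and 15.8 at P0.5 in epithelium, against 0 and 0.947 at E18.5, the second value being 3 reads, so the fitted log2 change of 3.35 rests on values at the limit of detection. In fibroblasts Atp5k had 4.41 and 12.0, against 1.40 and 2.13 (log2 change 1.61). Atp5l had 585 and 611 at P0.5 in fibroblasts, against 146 and 112 at E18.5 (log2 change 2.22, SE 0.26, adjusted p = 1.2e-05), and in epithelium 354 and 685, against 86.3 and 181 (log2 change 1.97). Atp5l shares 3′ sequence with 21 annotated pseudogenes. The alpha, beta and gamma subunits Atp5a1, Atp5b and Atp5c1 were not called. Atp5s fell in fibroblasts, with 27.7 and 23.6 at P0.5, against 55.3 and 60.1 at E18.5 (log2 change -1.14, SE 0.26, adjusted p = 0.0050; not called without P0.5 replicate 2, -1.03).

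**Figure D1:**
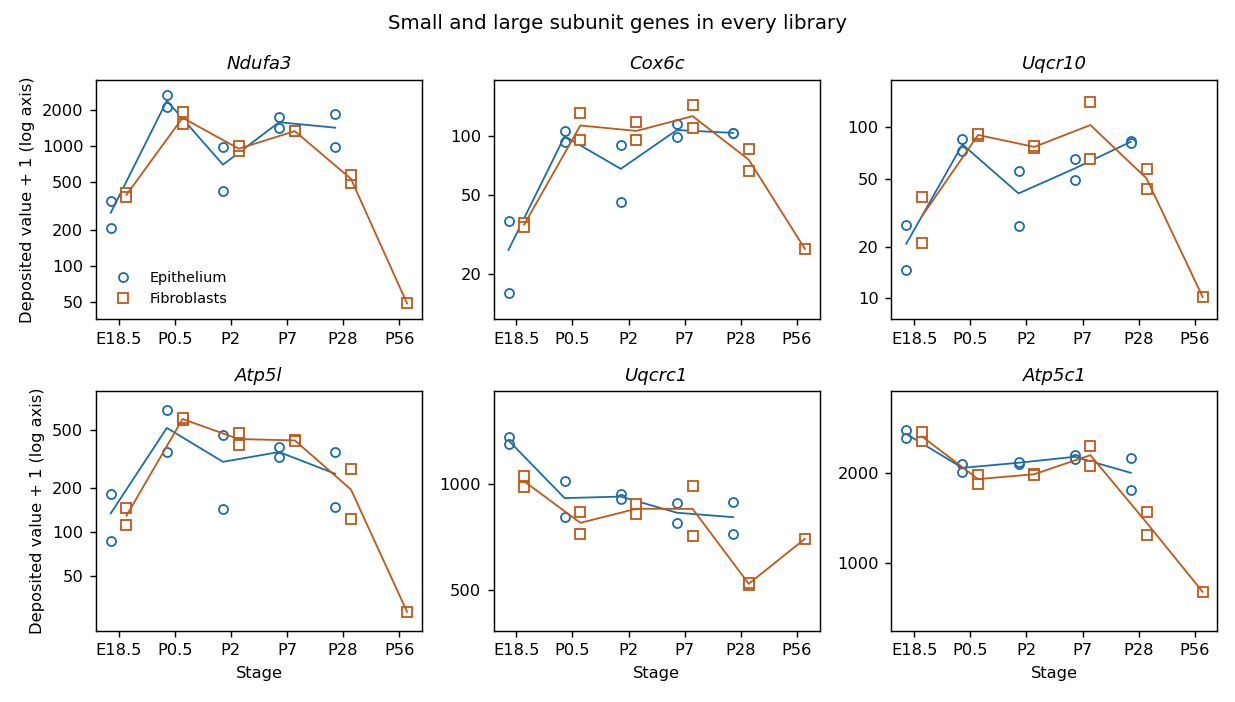
Deposited value + 1 (log axis) of 6 members in every library by stage; circles are epithelial and squares fibroblast libraries, and lines join the stage means. Ndufa3, Cox6c, Uqcr10 and Atp5l have higher values at P0.5 than at E18.5 in both cell types, while Uqcrc1 and Atp5c1 have lower means at P28 than at E18.5.

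The members moved alike in epithelium and fibroblasts at this step. Of the 16 that rose in epithelium, 15 (93.8%) also rose in fibroblasts, where they were 71.4% of the 21 that rose. Those 21 include Cox6b2, which is not among the 15 and whose call carries no weight. For all genes, 318 rose in both, 36.2% of the epithelial and 33.1% of the fibroblast genes that rose. Across the 73 members tested in both cell types the log2 changes had a Pearson correlation of 0.84, beside 0.41 across 10391 genes. These are correlations across genes that share libraries, sort and amplification. The test of the difference in change called 0 members higher and 1 lower, where 1.55% of all 13386 genes in the joint fit were higher and 1.97% lower. That member was Cox6b2, which passed the filter only through the fibroblast libraries in which it is high, so this call carries no weight. Without the adjustment 3 were higher and 1 lower, and edgeR and DESeq2 each called 0.

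Most members that rose have a short transcript. The annotated transcript (GENCODE M21) of the members is 787 bases at the median, and 32 of 80 are under 700 bases. In epithelium 12 of 27 tested members under 700 bases rose (44.4%), and 4 of 46 longer members (8.7%). Over all genes tested that have a length, 32.2% of 214 genes under 700 bases rose and 6.48% of 10193 longer genes. In fibroblasts 14 of 29 short members rose (48.3%) and 7 of 46 longer ones (15.2%), beside 34.4% of 192 short and 7.52% of 9978 longer genes. Those 14 include Cox6b2, whose call carries no weight. The Spearman correlation of length with the change at birth was -0.59 across the epithelial members and -0.55 across the fibroblast members, and -0.06 and -0.08 across all genes. All genes here include the members. The share that rose was larger in the members than in all genes for short transcripts in both cell types and for longer ones in fibroblasts. For longer transcripts in epithelium the shares were close (8.7% and 6.48%). No test of these gaps was made.

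**Figure D2:**
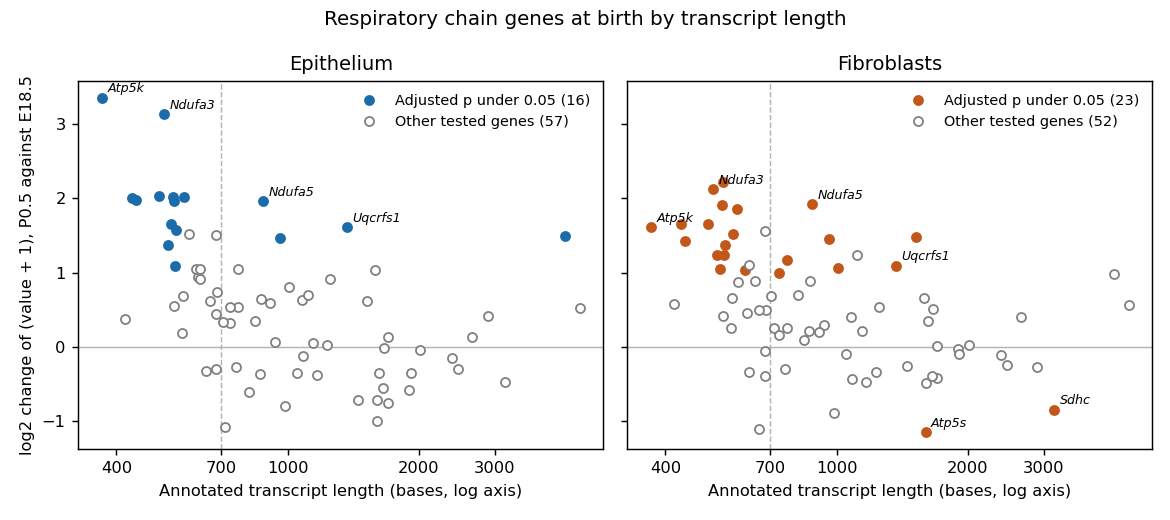
The log2 change of (value + 1) at P0.5 against E18.5 (y axis) by annotated transcript length in bases (x axis, log) for the 73 epithelial and 75 fibroblast members tested; filled points have an adjusted p under 0.05 and the dashed line marks 700 bases. Most filled points above 0 lie left of the line in both cell types. The filled fibroblast points include Cox6b2, whose call carries no weight.

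In the library means, short genes outside the chain were also higher at P0.5 than at E18.5. The mean log2(joint CPM + 1) of the 29 short members was 4.86 and 4.97 in the P0.5 epithelial libraries, against 3.37 and 4.19 at E18.5. For 188 other short genes it was 4.55 and 4.63 at P0.5, against 3.58 and 4.12. For the 46 longer members it was 5.05 and 5.13 at P0.5, against 4.90 and 4.99. Across the 21 libraries the mean of the short members and that of the other short genes had a Pearson correlation of 0.90. The mean of the longer members had a correlation of 0.64 with that of the other short genes. Both values describe libraries that differ in stage, cell type and depth together. Within E18.5 epithelium, with no difference in stage, replicate 1 was the lower in both short sets. The part of transcript length in the result was not tested.

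**Figure D3:**
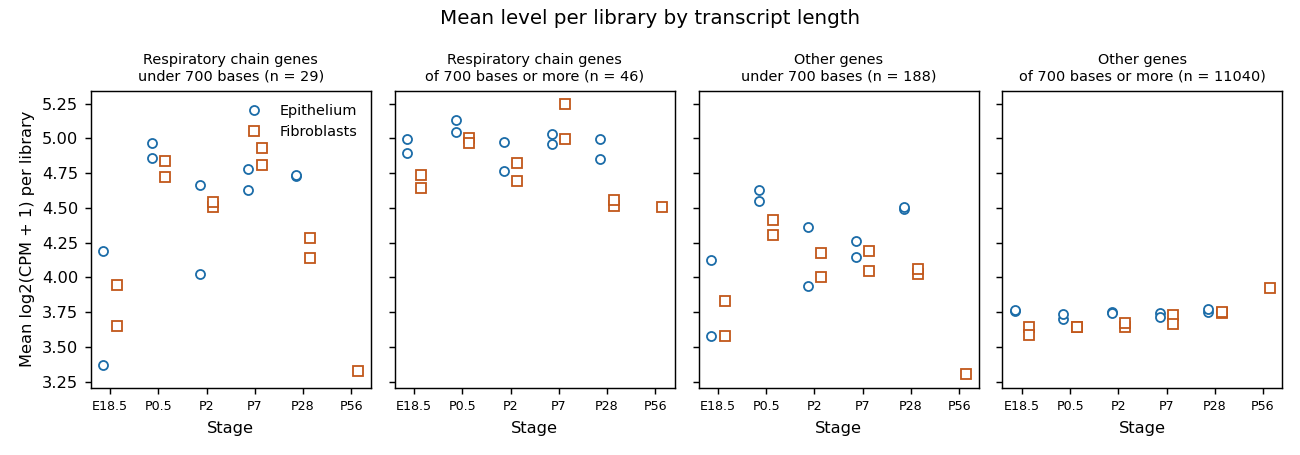
Mean log2(joint CPM + 1) per library (y axis) by stage for respiratory chain genes and all other tested genes, each split at 700 bases of transcript length; circles are epithelial and squares fibroblast libraries. The short chain genes and the other short genes are both low at E18.5, high at P0.5 and lowest in the P56 library, while the long genes vary less.

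Other groups around the chain did not all move with it. Cytosolic ribosomal proteins, mostly short transcripts too, rose in 38 of 74 and fell in 1 in epithelium, and rose in 31 of 75 and fell in 1 in fibroblasts. Mitochondrial ribosomal proteins rose in 7 of 71 and fell in 2 in epithelium, and rose in 6 of 69 and fell in 3 in fibroblasts. Of the assembly factors and translation activators of the complexes, 2 of 35 rose and 1 fell in epithelium, and 1 of 34 rose and 2 fell in fibroblasts. Cox17, the copper chaperone of complex IV, rose in both (log2 changes 2.71 and 1.40), and Sco1, which receives its copper, rose in epithelium (2.80). Of the tricarboxylic acid cycle enzymes 1 of 16 rose in epithelium (Suclg1, 0.83) and 0 of 17 in fibroblasts. Of 17 glycolysis genes 8 fell in epithelium and 3 in fibroblasts, Pgam1 (phosphoglycerate mutase) in both (-1.65 and -1.48). Of the regulators of mitochondrial biogenesis 0 of 11 rose and 1 fell in epithelium (Polg, the mitochondrial DNA polymerase, -0.99), and 0 of 12 rose and 1 fell in fibroblasts (Polg, -0.75).

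Other markers moved at the same step. The sum of 6 erythroid markers, which include globin genes, was 4094 to 6173 in the P0.5 epithelial libraries, against 799 to 2878 at E18.5, and 2739 to 3592 in P0.5 fibroblasts, against 629 to 894. All 6 were higher in both P0.5 epithelial libraries than in both E18.5 libraries, and 5 of 6 in fibroblasts. Each alveolar type 2 marker listed (Sftpc, Sftpb, Abca3, Lamp3 and Slc34a2) was also higher in both P0.5 epithelial libraries than in both E18.5 libraries. Sftpc had 9059 and 9932 at P0.5, against 4059 and 3448 at E18.5. The alveolar type 1 marker Ager was lower, with 292 and 369, against 656 and 692. For Aqp5, Hopx and Pdpn, also of type 1, the P0.5 and E18.5 libraries overlapped. The 4 ciliated markers did not move together in epithelium: Tppp3 had 3507 and 3429 at P0.5, against 2086 and 2180 at E18.5, while Foxj1, the transcription factor of ciliated cells, had 96.9 and 73.0, against 160 and 221. In fibroblasts Tppp3 had 1396 and 1654, against 89.6 and 118, and Foxj1 2.83 and 3.37, against 1.97 and 0. Their part in the result was not tested. Without P0.5 epithelial replicate 2 the count of epithelial members called was 8 in place of 16. Without E18.5 fibroblast replicate 2 or P0.5 replicate 2 the fibroblast count was 14 or 12 in place of 23.

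At P2 the called members were lower than at P0.5. In all, 0 epithelial members rose and 6 of 73 fell against P0.5, where 5.13% of all genes rose and 3.69% fell; 0 fibroblast members rose and 7 of 75 fell, where 9.74% rose and 7.2% fell. These comparisons share the P0.5 libraries with the birth step. The epithelial members that fell were Atp5k, Cox7c, Ndufa3, Uqcrfs1, Atp5j2 and Cox8a. Ndufa3 had 421 and 970 at P2, against 2111 and 2618 at P0.5 (log2 change -1.88), and Cox7c, a small membrane subunit, 2.73 and 11.5, against 29.7 and 30.3 (-2.18). Atp5k had 0.456 and 2.31, against 11 and 15.8 (-2.70). The P2 replicates stood apart, with replicate 1 lower for all 3 genes, and without it or without P0.5 replicate 2 the calls of all 3 were lost and 1 member was called in all. Without P0.5 replicate 1 the Cox7c call was also lost, and 3 members were called. Without the adjustment 4 epithelial members were higher and 18 lower at p under 0.05, and edgeR and DESeq2 each called 0 higher and 7 lower.

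In fibroblasts the largest falls at P2 were in other genes. Cox7a2l, known for its part in joining complexes III and IV into supercomplexes, had 17.1 and 20.6 at P2, against 48.5 and 50.2 at P0.5 (log2 change -1.35, SE 0.27, adjusted p = 0.0020). Atp5g2, a gene for subunit c of the rotor ring, had 14.6 and 18.6, against 32.1 and 46.8 (-1.18). Uqcrfs1 had 28.4 and 18.6, against 42.2 and 48.7 (-0.94). The P2 and P0.5 libraries did not overlap for these 3 genes. Uqcrfs1 and Ndufa3 fell in both cell types, 2 of the 6 epithelial (33.3%) and of the 7 fibroblast members (28.6%). The calls of Atp5g2 and Uqcrfs1 were lost without P0.5 replicate 2 (-0.92 and -0.84). Leaving out P0.5 replicate 2 reduced the fibroblast count to 1, and either P2 replicate to 3. Without the adjustment 4 fibroblast members were higher and 10 lower, and edgeR and DESeq2 each called 0 higher and 7 lower.

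Markers moved at this step too. In fibroblasts 4 of 5 mesenchymal markers were higher in both P2 libraries than in both P0.5 libraries. Pdgfra went the other way, with 10.3 and 17.6 at P2, against 34.0 and 35.6 at P0.5. The pericyte and smooth muscle markers did not move together there. Acta2 had 129 and 143 at P2, against 19.2 and 17.6 at P0.5. Myh11, Notch3 and Pdgfrb were also higher in both P2 libraries. Ndufa4l2 had 7.82 and 3.84, against 25.5 and 27.3, and Trpc6 was also lower in both. Cspg4, Rgs5 and Higd1b did not separate the stages. In epithelium 3 of 5 mesenchymal markers were higher in both P2 libraries, among them Col3a1, with 80.2 and 37.6 at P2, against 14.7 and 15.0, and Vim, with 626 and 571, against 410 and 338. All 4 ciliated markers listed in epithelium and both listed in fibroblasts were lower in both P2 libraries. Between P2 and P7, 4 of 5 mesenchymal, 4 of 5 leukocyte and 5 of 6 erythroid markers were lower in both P7 epithelial libraries, and all 6 erythroid markers in fibroblasts. The leukocyte marker Lcp1 went the other way in epithelium, with 38.7 and 28.3 at P7, against 22.8 and 17.5 at P2. The part of these markers in the results was not tested.

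Few members moved between P2 and P7. In epithelium 2 of 73 rose and 0 fell at P7 (1.55% of all genes rose and 2.17% fell), and 4 rose and 0 fell with TMM scaling, under which 270 of all genes rose and 246 fell in place of 188 and 263. In fibroblasts 2 of 75 rose and 0 fell (2.36% and 4.28% of all genes). Atp5a1, the alpha subunit of the catalytic head, rose in both. It had 241 and 278 at P7 in epithelium, against 140 and 166 at P2 (log2 change 0.76, adjusted p = 0.036), and 187 and 223 in fibroblasts, against 111 and 121 (0.81, adjusted p = 0.012). Uqcrfs1 rose in epithelium, with 79.8 and 82.3 at P7, against 35.6 and 49.1 at P2 (0.94), and the second fibroblast call was Ndufa1, with 5.25 and 7.93 at P7, against 1.78 and 0.548 at P2. Ndufa1 passed the filter only through those P7 libraries, so its call carries no weight. Without the adjustment 8 members were higher and 0 lower in epithelium and 15 and 0 in fibroblasts; edgeR called 3 higher and 0 lower in each, and DESeq2 2 and 4 higher with 0 lower. Leaving out either P7 epithelial library or P2 replicate 1 left 0 epithelial members called, and leaving out either P2 fibroblast library left 0 fibroblast members called.

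Between P7 and P28 members were called lower in fibroblasts and not in epithelium. In fibroblasts 24 of 75 members fell and 1 rose at P28 against P7, where 9.49% of all genes fell and 11.3% rose. The median log2 change was -0.63, beside 0.0020 for all genes. In epithelium 0 of 73 members fell and 1 rose, where 2.41% of all genes fell and 4.87% rose, with a median of -0.05 beside -0.03. No epithelial member was lower at an unadjusted p under 0.05, and edgeR and DESeq2 each called 1 higher and 0 lower. The difference between the cell types at this step was not tested.

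The fibroblast fall took in every complex: 8 of 33 in complex I, 1 of 4 in complex II, 2 of 8 in complex III, 7 of 14 in complex IV and 6 of 16 in complex V. It included both small and core subunits. Ndufa3 had 493 and 567 at P28, against 1319 and 1324 at P7 (log2 change -1.32, SE 0.17, adjusted p = 1.9e-05). Atp5g2 had 9.74 and 14.4, against 27.3 and 31.3 (-1.24), a call lost without P28 replicate 1 (-0.98). Atp5l had 122 and 269, against 430 and 423 (-1.23), also lost without P28 replicate 1 (-0.66) or without the filter. In each of these genes both P28 libraries lay below both P7 libraries.

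Among the other members that fell, Cox4i1, the largest nuclear subunit of complex IV, had 32.2 and 40.3 at P28, against 65.4 and 72.2 at P7 (log2 change -0.91, adjusted p = 0.0089). Uqcrc1 had 516 and 523, against 987 and 708 (-0.68), and the gamma subunit Atp5c1 1245 and 1488, against 2474 and 2121 (-0.75). The beta subunit Atp5b had 197 and 171, against 353 and 263 (-0.73), and Sdhc 523 and 738, against 1205 and 971 (-0.80). Atp5sl rose, with 112 and 115 at P28, against 85.1 and 58.5 at P7 (0.68, adjusted p = 0.032; not called without the filter, without P7 replicate 2 or without either P28 library).

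Length separated the fibroblast members less at this step. Of the short members 11 of 29 fell (37.9%) and of the longer ones 13 of 46 (28.3%), beside 21.9% of 192 short and 9.6% of 9978 longer genes. Cytosolic ribosomal proteins fell in 43 of 75 and rose in 0, mitochondrial ribosomal proteins fell in 10 of 69 and rose in 0, and assembly factors were not called (0 of 34 in each direction, median -0.38). Of 17 tricarboxylic acid cycle enzymes 2 fell, among them the mitochondrial isocitrate dehydrogenase Idh2 (-1.54). Glycolysis genes rose in 6 of 17 and fell in 0, with Hk2, a hexokinase, at 1.78 and the glucose transporter gene Slc2a1 at 1.53. Of the biogenesis regulators 1 of 12 fell, Nrf1 itself (-0.80).

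The fibroblast sort also changed in its markers between these stages. Of the 9 pericyte and smooth muscle markers, 4 were lower in both P28 libraries than in both P7 libraries and 2 higher. Acta2, smooth muscle actin, had 9.45 and 15.95 at P28, against 95.8 and 109 at P7, while Pdgfrb, a receptor of pericytes and other mesenchymal cells, had 9.74 and 7.98, against 1.31 and 0.418. The sum of the erythroid markers was 657 to 2876 at P28, against 93.7 to 181 at P7. For the leukocyte markers it was 34.3 to 124, against 0 to 3.68. The sum of the 5 mesenchymal markers was also higher, with 28195 to 32328 at P28, against 20874 to 25497 at P7. The part of all these markers in the fall was not tested. Every library of the comparison bore on the count: without P7 replicate 1 it was 7 in place of 25, without P7 replicate 2 it was 15, and without P28 replicate 1 or 2 it was 11 or 10. Without the filter on low values it was 12, all of them lower.

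**Figure D4:**
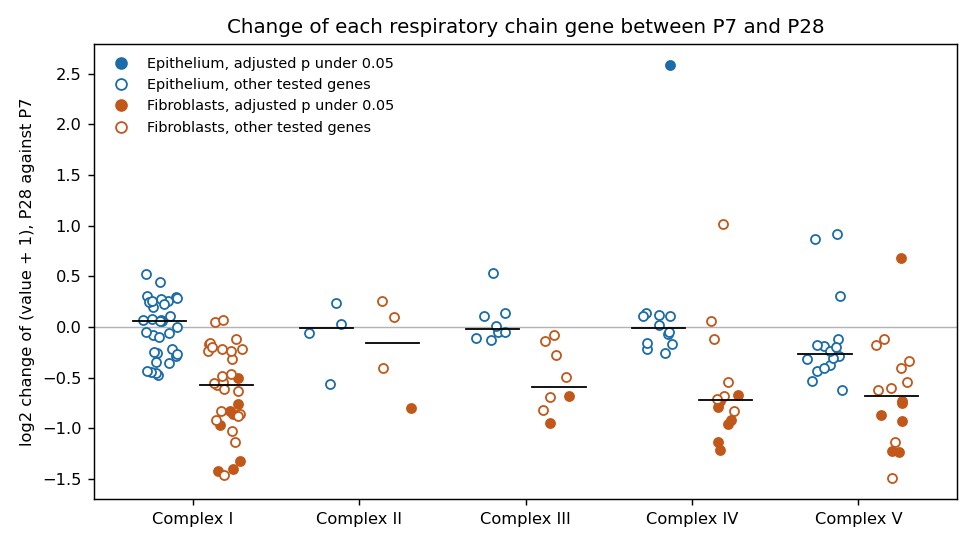
The log2 change of (value + 1) at P28 against P7 (y axis) for each tested member by complex, epithelium left and fibroblasts right in each pair; filled points have an adjusted p under 0.05 and black bars are medians. The epithelial medians lie between -0.26 and 0.06, with Cox6a2 alone at 2.59, and the fibroblast medians between -0.72 and -0.15.

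Over the whole course, 15 of 73 epithelial members were higher and 2 lower at P28 than at E18.5, where 13.5% of all genes were higher and 11.3% lower. In fibroblasts 9 of 75 were higher and 10 lower, where 18.7% were higher and 14.9% lower. The fibroblast shares (12% and 13.3%) were thus under those of all genes. Cox6c, Cox7c, Ndufa2, Ndufa4 and Uqcrfs1 were higher in both cell types. Cox6c had 103 and 102 at P28 in epithelium, against 14.9 and 36.0 at E18.5 (log2 change 2.09), and 84.5 and 65.0 in fibroblasts, against 35.4 and 33.7 (1.08). Atp5s and Uqcrc1 were lower in both. Uqcrc1 had 888 and 717 at P28 in epithelium, against 1351 and 1298 at E18.5 (log2 change -0.73, adjusted p = 0.0077; not called without E18.5 replicate 1 or P28 replicate 2), and 516 and 523 in fibroblasts, against 976 and 1052 (-0.96, adjusted p = 0.00043). Atp5s had 26.6 and 30.2 at P28 in epithelium, against 51.2 and 59.0 (-0.93; not called without E18.5 replicate 2 or P28 replicate 1), and 30.1 and 22.7 in fibroblasts, against 55.3 and 60.1 (-1.11).

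The fibroblast genes that were lower were 10 of 46 longer members (21.7%) and 0 of 29 short ones, beside 14.9% of all longer and 7.81% of all short genes. Cox4i1 (-0.88), Atp5c1 (-0.96), Sdhc (-0.89) and Sdhd (-1.35), the other membrane anchor of complex II, were among them. Atp5f1, subunit b of the stalk that holds the catalytic head, had 3.84 and 9.97 at P28, against 14.6 and 15.4 at E18.5 (log2 change -1.13), a call lost without P28 replicate 1 (-0.54), with DESeq2, without the filter and without 4 other libraries in turn. Ndufa4 had 31.0 and 16.4 at P28, against 6.18 and 13.2 (1.22), lost without E18.5 replicate 1 (0.73), without P28 replicate 1 (0.78) and without the filter. Leaving out E18.5 epithelial replicate 1 reduced the epithelial count from 17 to 8, and leaving out E18.5 fibroblast replicate 2 or P28 replicate 1 reduced the fibroblast count from 19 to 11 or 10.

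In epithelium 32 of 73 members (43.8%) had their highest stage mean at P0.5, beside 20.2% of all genes, and 40 (54.8%) their lowest at E18.5, beside 25.6%. In fibroblasts 27 of 75 (36%) were highest at P0.5 and 30 (40%) at P7, beside 17.7% and 16.4% of all genes, and 38 (50.7%) were lowest at E18.5 and 24 (32%) at P28, beside 23.7% and 25%. These shares order stage means over 5 stages of 2 libraries and carry no test.

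The single P56 fibroblast library stood apart from the others. Its deposited values summed to 769260, the lowest of the 21 libraries, its mean for other short genes was 3.30, the lowest of 21, and its mesenchymal marker sum was 9868, against 28195 to 32328 at P28. Against P28, 24 of 75 members were lower and 3 higher, where 19.1% of all genes were lower and 12.2% higher; the lone library is assumed to vary like the other groups. With TMM scaling 18 were lower and 8 higher. The median of all genes was 0.06 with that scaling and -0.12 without it, and the median of the members -0.39 with it and -0.59 without it. Stage, scaling and this 1 library cannot be told apart.

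The P56 falls were largest in short members. Ndufa3 had 47.9 at P56, against 493 and 567 at P28 (log2 change -3.44), Atp5l 27.5, against 122 and 269 (-2.68), and Uqcr10 9.13, against 56.1 and 42.3 (-2.30). Of 29 short members 14 were lower (48.3%), beside 41.7% of 192 short genes, and of 46 longer members 10 (21.7%), beside 16.9% of 9978. Sdhd had 15.4, against 2.07 and 2.39 (2.35), Sdha, the flavoprotein that oxidises succinate, 55.2, against 16.5 and 21.1 (1.51), and Uqcrfs1 76.8, against 48.4 and 31.9 (0.95; not called without P28 replicate 2 (0.65), without the filter or without either P0.5 library). Those 3 lay above both P28 libraries.

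Between the cell types, over the 5 shared stages, 22 of 75 members were higher in epithelium and 8 lower, where 32.5% of all genes were higher and 29.9% lower (joint fit of 20 libraries). A smaller share of the members than of all genes was thus called. The median log2 difference was 0.15, beside 0.01 for all genes. Apart from Cox6a2, Cox7a2 and Cox6b2, the called differences reached at most 0.96 in size. Ndufs7, the complex I subunit that holds the iron-sulfur cluster next to ubiquinone, averaged 12.2 ± 3.54 joint CPM in epithelium and 5.81 ± 2.06 in fibroblasts (SD, n = 10 each; log2 difference 0.96, adjusted p = 3.2e-05). Uqcrfs1 averaged 64.8 ± 26.9 joint CPM in epithelium and 33.5 ± 12.1 in fibroblasts (0.89, adjusted p = 2.8e-07). The ranges of both genes over 10 libraries overlapped.

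Among the members lower in epithelium were Ndufb6, an accessory subunit of the membrane arm of complex I (log2 difference -0.68), and Atp5h, subunit d of the stalk (-0.44). Cox7a2 and Cox6b2 are counted among the 8 lower members, but they passed the filter only through fibroblast libraries, so these calls carry no weight and 6 stand without them. The 17 of 46 longer members higher in epithelium (37%) stood beside 33.8% of all longer genes, and the 5 of 29 short ones (17.2%) beside 28.1% of all short genes.

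Cox6a2 was the one member whose 10 epithelial and 10 fibroblast libraries did not overlap. The share of all genes without overlap was not counted. Cox6a2 encodes the isoform of subunit 6a known from heart and skeletal muscle, while Cox6a1 encodes the isoform of most other tissues. The values of Cox6a2 in epithelium were 9.73 and 64.4 at E18.5, 77.8 and 70.1 at P0.5, 89.8 and 166 at P2, 133 and 108 at P7, and 809 and 651 at P28. In fibroblasts they were 1.97 and 0 at E18.5, 3.15 and 5.24 at P0.5, 3.91 and 1.65 at P2, 4.73 and 5.01 at P7, 1.18 and 3.99 at P28, and 0.269 at P56. The joint CPM difference was 4.97 on the log2 scale (SE 0.26, adjusted p = 3.5e-13).

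Both P28 epithelial libraries lay above every other library. The change at P28 against P7 was 2.59 (SE 0.55, adjusted p = 0.0086), and it was not called without P7 replicate 2 (2.44) or P28 replicate 1 (2.43). Against E18.5 it was 4.78 (adjusted p = 3e-05), where the E18.5 replicates themselves differed more than 3-fold. Cox6a1, by contrast, had 30.8 and 59.7 at E18.5, 53.6 and 90.8 at P0.5, 30.5 and 46.1 at P2, 36.0 and 40.3 at P7, and 50.6 and 34.9 at P28 in epithelium, with no call at any step there. In fibroblasts Cox6a1 had 45.2 and 40.5, 56.0 and 82.3, 62.9 and 64.2, 48.1 and 49.7, 28.3 and 32.3 from E18.5 to P28, and 25.4 at P56; it fell at P28 against P7 (-0.67).

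The muscle markers were low in epithelium at both stages. Of the 8 cardiac muscle markers listed, Myh6, a heart myosin, made up most of the sum, with 30.1 and 29.4 at P28, against 27.3 and 25.7 at P7. The sum of all 8 was 31.4 to 33.2 at P28, against 26.9 to 29.0, with 3 markers at 0 in both P28 libraries and 2 in both P7 libraries. The sum of 5 skeletal muscle markers was 8.64 to 11.2 at P28, against 7.47 to 7.83. Other marker sums were higher at P28 than at P7: leukocyte 1137 to 1321, against 28.8 to 40.0, with all 5 markers higher in both libraries; club cell 3452 to 3466, against 447 to 562, with 2 of 3; and erythroid 1155 to 1366, against 55.5 to 304, with 5 of 6. Of the 5 mesenchymal markers Vim, an intermediate filament protein, had 2271 and 2346 at P28, against 137 and 118 at P7, while Col1a1, Col1a2 and Col3a1 were lower in both P28 libraries than in both P7 libraries. Each ciliated marker listed (Foxj1, Tppp3, Dynlrb2 and Ccdc153) was also higher in both P28 libraries than in both P7 libraries. Foxj1 had 119 and 82.4 at P28, against 37.4 and 41.4 at P7. The alveolar type 2 markers did not move together. Abca3, with 258 and 223 at P28, against 462 and 489 at P7, and Sftpc were lower in both P28 libraries. Sftpb was higher in both, and for Lamp3 and Slc34a2 the stages overlapped. The part of these markers in the rise was not tested. Cox6a2 lies at chr7:128205435-128206387 (minus strand, GRCm38), and overlaps the annotated gene Itgad; the sources used here do not state whether counting used strand.

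**Figure D5:**
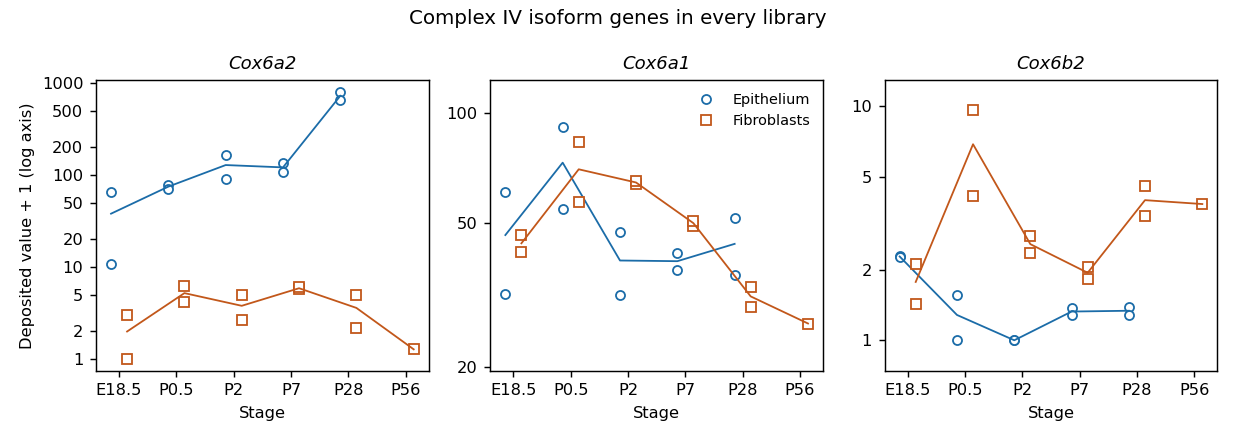
Deposited value + 1 (log axis) of Cox6a2, Cox6a1 and Cox6b2 in every library by stage; circles are epithelial and squares fibroblast libraries, and lines join the stage means. Cox6a2 lies higher in every epithelial library than in any fibroblast library and reaches 809 and 651 at P28, while Cox6b2 reaches 3.15 and 8.61 in fibroblasts at P0.5.

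The other isoform genes are given by library. Values of different genes are not set against each other here, because tag recovery differs between genes. Cox4i1, the common form of subunit 4, had in epithelium 59.4 and 58.4 at E18.5, 105 and 70.1 at P0.5, 45.1 and 89.3 at P2, 75.6 and 66.3 at P7, and 79.2 and 64.8 at P28. In fibroblasts Cox4i1 had 72.5 and 61.8 at E18.5, 90.6 and 70.4 at P0.5, 57.2 and 78.7 at P2, 65.4 and 72.2 at P7, 32.2 and 40.3 at P28, and 25.9 at P56, with both P28 libraries and the P56 library below all others. Cox4i2, known as an isoform of the lung and of low oxygen, had in epithelium 1.30 and 1.26 at E18.5, 3.30 and 1.70 at P0.5, 0.912 and 0 at P2, 1.68 and 2.24 at P7, and 0.772 and 0 at P28. In fibroblasts Cox4i2 was at 0 in all libraries but 1 at P0.5 (0.629) and 1 at P7 (0.263), and it did not pass the filter on low values in either cell type.

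Cox7a1, the isoform of subunit 7a known from heart and skeletal muscle, had at most 0.772 in epithelium and 0.315 in fibroblasts. Cox7a2, its counterpart in most tissues, had in epithelium 0.649 and 1.26 at E18.5, 0.734 and 0.848 at P0.5, 0.456 and 0.989 at P2, 1.68 and 0.280 at P7, and 0.772 and 0.576 at P28. In fibroblasts Cox7a2 had 3.93 and 10.2 at E18.5, 3.15 and 1.87 at P0.5, 3.91 and 1.92 at P2, 2.10 and 2.51 at P7, 3.54 and 1.60 at P28, and 0 at P56. Both genes were thus measured by few reads, and Cox7a2 shares 3′ sequence with a pseudogene. Cox7b had in epithelium 12.3 and 36.6 at E18.5, 36.0 and 40.4 at P0.5, 32.8 and 55.7 at P2, 39.4 and 61.0 at P7, and 41.7 and 66.8 at P28. In fibroblasts Cox7b had 19.1 and 14.1 at E18.5, 51.9 and 24.0 at P0.5, 38.0 and 46.9 at P2, 55.7 and 42.2 at P7, 31.9 and 26.7 at P28, and 6.31 at P56, lowest at P56. Cox7b2 was at 0 in every fibroblast library apart from 0.134 at P56.

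Cox6b1, the common form of subunit 6b, had in epithelium 9.41 and 34.7 at E18.5, 47.0 and 27.7 at P0.5, 28.7 and 46.1 at P2, 45.9 and 56.5 at P7, and 32.8 and 55.0 at P28. In fibroblasts Cox6b1 had 27.8 and 11.9 at E18.5, 34.9 and 18.7 at P0.5, 24.5 and 33.5 at P2, 57.8 and 52.6 at P7, 23.0 and 23.5 at P28, and 9.67 at P56. The P7 fibroblast libraries were the highest of the 11. Cox6b2, known from testis, had 1.30 and 1.26 at E18.5 and at most 0.566 at later stages in epithelium. In fibroblasts Cox6b2 had 1.12 and 0.427 at E18.5, 3.15 and 8.61 at P0.5, 1.78 and 1.37 at P2, 1.05 and 0.835 at P7, 3.54 and 2.39 at P28, and 2.82 at P56. These are few reads.

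Cox8a, a small membrane subunit, had in epithelium 43.5 and 81.4 at E18.5, 190 and 170 at P0.5, 75.7 and 120 at P2, 138 and 144 at P7, and 156 and 149 at P28. In fibroblasts Cox8a had 85.4 and 60.6 at E18.5, 173 and 205 at P0.5, 157 and 135 at P2, 170 and 169 at P7, 113 and 84.1 at P28, and 71.7 at P56. Its mean in epithelium was lowest at E18.5 and highest at P0.5. Ndufa4 had in epithelium 7.46 and 20.2 at E18.5, 30.1 and 23.5 at P0.5, 10.5 and 28.7 at P2, 32.1 and 39.7 at P7, and 35.1 and 28.5 at P28. In fibroblasts Ndufa4 had 6.18 and 13.2 at E18.5, 20.5 and 19.1 at P0.5, 32.0 and 32.1 at P2, 36.5 and 30.5 at P7, 31.0 and 16.4 at P28, and 10.9 at P56. Its rise over the course was called in epithelium too (1.29, adjusted p = 0.046), and both its E18.5 libraries lay below both P28 libraries in each cell type.

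Subunit c, which forms the rotor ring, has 3 genes for the same mature protein. Atp5g1 had in epithelium 16.5 and 20.5 at E18.5, 27.9 and 25.7 at P0.5, 18.2 and 27.4 at P2, 35.3 and 30.5 at P7, and 32.1 and 19.6 at P28. In fibroblasts Atp5g1 had 16.3 and 20.9 at E18.5, 28.6 and 27.0 at P0.5, 40.2 and 49.4 at P2, 39.6 and 42.2 at P7, 25.4 and 30.3 at P28, and 9.80 at P56, highest at P2 and P7. Atp5g2 had in epithelium 26.9 and 28.7 at E18.5, 34.9 and 47.5 at P0.5, 19.1 and 32.0 at P2, 31.0 and 38.3 at P7, and 29.0 and 26.5 at P28, and its fibroblast values at P0.5, P2, P7 and P28 are given above with its calls. Atp5g3 had in epithelium 11.4 and 42.0 at E18.5, 10.3 and 9.61 at P0.5, 32.8 and 34.3 at P2, 5.04 and 50.1 at P7, and 22.4 and 46.1 at P28. In fibroblasts Atp5g3 had 29.8 and 5.97 at E18.5, 45.3 and 5.61 at P0.5, 28.8 and 35.1 at P2, 65.9 and 67.2 at P7, 14.5 and 36.3 at P28, and 4.97 at P56, and it was uneven between replicates.

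The difference in whole-course change between the cell types was called for 4 of 75 members, 3 higher and 1 lower in epithelium, where 5.23% of all genes were higher and 9.85% lower. With plain library totals in place of TMM, 8 were higher and 1 lower, and the median of all genes was 0.13 with that scaling and -0.05 without it. Ndufa3 changed more in epithelium, with a difference of 1.80 (SE 0.42, adjusted p = 0.0056), as 1690 and 932 joint CPM at P28, against 202 and 327 at E18.5, compared with 483 and 560, against 390 and 353, in fibroblasts. Cox6a2 (3.80, adjusted p = 0.0034) was not called by edgeR (adjusted p = 0.178) or DESeq2 (adjusted p = 0.115). Ndufv3, an accessory subunit of the flavoprotein part of complex I, differed by 1.33 (adjusted p = 0.046), a call lost with edgeR, DESeq2, the replicate block and no filter.

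Some members differed widely between the 2 libraries of a group. A gap of over 3-fold between the 2 libraries of a group, on the value + 1 scale and for genes whose pair mean reached 10, occurred in 9 of 567 member pairs (1.59%), beside 313 of 64049 gene pairs (0.489%). Atp5g3 accounted for 4 of the 9. It had 5.04 and 50.1 in P7 epithelium, 11.4 and 42.0 in E18.5 epithelium, 45.3 and 5.61 in P0.5 fibroblasts and 29.8 and 5.97 in E18.5 fibroblasts.

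Atp5j, the F6 subunit of the stalk, and Cox5a, a matrix-side subunit of complex IV, went with it. Atp5j had 10.6 and 39.2 in P7 epithelium and 49.4 and 9.36 in P0.5 fibroblasts, and Cox5a 18.5 and 42.2 in P7 epithelium and 34.0 and 13.1 in P0.5 fibroblasts. Over the 10 groups with 2 libraries, the replicate differences in log2(joint CPM + 1) of Atp5g3 had a Pearson correlation of 0.945 with those of Atp5j and 0.874 with those of Cox5a. The genes lie on chromosomes 2, 16 and 9, and the set was chosen after its values were seen. Atp5j and Cox5a were called higher in fibroblasts at P28 than at E18.5 (log2 changes 1.41 and 1.05). Atp5j had 34.3 and 39.1 at P28, against 21.9 and 7.68 at E18.5, and for Atp5j that call was lost without E18.5 replicate 2 (0.71), with edgeR, with DESeq2, without the filter, without either P7 library and without either P28 library.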

How the data were processed

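Poly(A) RNA was amplified and 3′SAGE-seq libraries were sequenced with an Ion Proton sequencer, per the protocols in the labels; Bowtie2 2.2.5, R 3.4.0 and the build mm10 are named in the submitters' processing notes. The deposited signal of a gene was its tag count divided by 1 factor per library, as the values show: 100% of values above 0 were whole multiples of the value of 1 read within 0.01 read. The way the authors set this factor is not stated in those sources, and each cell type has its own gene table. The value of 3 reads, the least taken as detected, was 0.403 to 1.37; such floors cover counting error only.

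Within a cell type, genes with a value of at least 3 in at least 2 libraries entered limma 3.58.1 (R 4.3.3, trend) on log2(value + 1), a scale that understates changes of low genes, over all stages of that cell type, with Benjamini-Hochberg adjustment over all genes and a threshold of 0.05. Tested members numbered 73 of 79 in epithelium (not Atp5e, Cox4i2, Cox6b2, Cox7a1, Cox7a2 or Ndufc1) and 75 of 80 in fibroblasts (not Atp5e, Cox4i2, Cox7a1, Cox7b2 or Ndufc1). Between cell types, reads recovered over the 20004 shared genes were scaled by TMM to joint CPM and fitted as log2(CPM + 1) over 20 libraries, without P56. Alternatives were other scalings, a pseudocount of 5, no filter, edgeR 4.0.16, DESeq2 1.42.0, a replicate block and leaving out each library. The fits were tested on simulated data.

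Values in every library are given for up to 3 members with the largest rise and fall per comparison, among called members whose higher group averaged 10 or more, and for the isoform genes. The members, gene lists and markers were chosen with earlier results of these data known, and the split by transcript length was added after values were seen. A planned search for genes patterned like Cox4i2 and Cox7a1 was not made, since neither passed the filter. Mitochondrially encoded subunits and Cox8b were not analysed here. The result of a member that the naming rule picked is not reported here.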

Additional observations from a re-analysis of the deposited data

Results flagged for a closer look

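These 5 results stood out because the change in epithelium differed from that in fibroblasts in a test of the difference itself (limma on joint CPM, Benjamini-Hochberg over all genes). Cox6b2 differed by -2.68 at P0.5 against E18.5 (SE 0.59, adjusted p = 0.013). It had 0 and 0.553 joint CPM at P0.5 in epithelium, against 1.27 and 1.19 at E18.5, and 3.05 and 8.31 in fibroblasts, against 1.08 and 0.403, but it passed the filter on low values only through fibroblast libraries, where it is high, so this call carries no weight. Over the whole course, P28 against E18.5, Cox6b2 differed by -1.95 (SE 0.59, adjusted p = 0.030), with the same limit. Cox6a2 differed by 3.80 (SE 0.84, adjusted p = 0.0034), with 739 and 623 joint CPM at P28 in epithelium, against 9.51 and 60.8 at E18.5, and 1.16 and 3.94 in fibroblasts, against 1.89 and 0. Ndufa3 differed by 1.80 (SE 0.42, adjusted p = 0.0056). Ndufv3 differed by 1.33 (SE 0.44, adjusted p = 0.046), with 19.8 and 20.4 joint CPM at P28 in epithelium, against 4.12 and 9.54 at E18.5, and 12.4 and 12.6 in fibroblasts, against 12.7 and 9.27. The groups of 2 libraries were too small to look for single libraries far from the others.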

How the results depend on the processing

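Counts of members called moved beyond 1.5 times under these settings. With TMM scaling 4 epithelial members were called at P7 against P2 in place of 2. Without the filter on low values 1 was called there, 13 in place of 23 in fibroblasts at birth, 1 in place of 2 at P7 and 12 in place of 25 at P28 against P7. DESeq2 called 4 fibroblast members at P7. For the difference between cell types at birth edgeR and DESeq2 each called 0 in place of 1, and over the whole course edgeR and DESeq2 each called 1 and plain library totals 9 in place of 4; the causes were not tested. With 1 library left out at a time, the counts ranged in epithelium from 8 to 23 at birth, 1 to 8 at P2, 0 to 4 at P7, 0 to 1 at P28 against P7 and 8 to 20 over the course. In fibroblasts they ranged from 12 to 23, 1 to 7, 0 to 2, 7 to 25 and 10 to 19 for the same steps, and 20 to 29 at P56. Between cell types they ranged from 26 to 34, with 0 to 2 for the difference at birth and 2 to 6 for that over the course. For the difference over the course it was 2 without P28 epithelial replicate 1 or 2 or P28 fibroblast replicate 1, and for the difference at birth 0 without P0.5 epithelial replicate 1, E18.5 fibroblast replicate 2 or P0.5 fibroblast replicate 2. Of the 48 named changes, none reversed under these alternatives; 279 values kept and 18 lost their call under other settings, and 521 kept and 68 lost it with a library left out. Replicate numbers did not pair libraries: the correlations of deviations ran from -0.06 to 0.07 in epithelium and -0.04 to 0.04 in fibroblasts, with 0 of 10 pairs over 0.1 in each. With the replicate block 17 epithelial and 22 fibroblast members were called at birth and 23 fibroblast members at P28 against P7. Depth limits genes of a few reads, such as Atp5k, Ndufa1, Cox6b2 and Cox7a2.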
